A study of Mus musculus with 33 samples.

Results

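Expression of 8 genes that encode secreted or membrane antagonists of Wnt signalling was followed: Dkk1, Sfrp1, Sfrp2, Sfrp5, Frzb, Shisa2, Shisa3 and Notum. They were taken by name, not by a filter on their values, from 21844 genes measured in 33 mouse libraries. Earlier results of these data were known when they were chosen. Each was counted on 1 RefSeq transcript. The libraries come from embryoid bodies, which are aggregates of differentiating embryonic stem cells, kept without serum, dispersed on day 2, treated until day 4 and then harvested. The treatments were activin A, a Nodal-like ligand of the TGF-beta family, or SB-431542, which blocks the type I receptors of activin and Nodal. No genetic change or strain is named in the labels.

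In the dose set, libraries were made by DP-seq, in which cDNA is amplified with a designed set of heptamer primers, from untreated controls (SFM, 2 libraries), SB-431542 (SB, 1 library) and activin A at 3 ng/mL (AA3, 1 library), 15 ng/mL (AA15, 2 technical replicates) and 100 ng/mL (AA100, 1 library). AA3 and AA100 were also compared by standard RNA-seq from 20 ng mRNA (2 technical replicates and 1 library), by DP-seq from 50 pg mRNA (1 library and 2 technical replicates) and by SMART-seq from 50 pg mRNA (2 and 2 technical replicates). A further 12 DP-seq libraries held AA3 mRNA diluted to 6 inputs from 10 ng to 1 pg, 2 technical replicates each, and 4 single AA3 libraries were made as a paired-end library or with 3 primer sets meant to suppress ribosomal transcripts. The labels call all pairs technical replicates except the 2 SFM libraries, whose cultures they do not describe, so a p-value here measures the spread between libraries, not between cultures. In bulk samples such as these, fewer cells of a type and less RNA per cell cannot be told apart.

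Wnt ligands bind Frizzled receptors and the co-receptors Lrp5 and Lrp6 and so stabilise beta-catenin. Sfrp1, Sfrp2, Sfrp5 and Frzb (also called Sfrp3) are secreted proteins whose cysteine-rich domain resembles that of Frizzled and binds Wnt ligands outside the cell, Dkk1 binds the co-receptors, Notum removes the lipid that Wnt ligands need for activity, and Shisa2 and Shisa3 belong to a family that holds Frizzled and Fgf receptors in the endoplasmic reticulum. In the gastrulating mouse embryo, Wnt signals posteriorly promote the primitive streak, and antagonists made by anterior visceral and definitive endoderm shield the future head from them.

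Total counts were 13053122 to 15707808 in the dose set, 10389043 to 10738438 in standard RNA-seq, 10678979 to 13389156 in DP-seq at 50 pg and 25897343 to 30609013 in SMART-seq. The SFM libraries stood apart from each other: the chi-square per degree of freedom of their counts over genes was 618, against 33.9 for the AA15 pair of like depth and at most 71.5 for any technical pair. SFM replicate 2 is also the library labelled as carrying spiked-in yeast transcripts, and the primitive streak gene T stood at 61.1 CPM (counts scaled for library size) in SFM replicate 1 and 0.964 in SFM replicate 2. Calls that rest on SFM are therefore given with both SFM libraries and again with each of them left out. The embryoid bodies expressed markers of several germ layers. The summed CPM of 9 anterior endoderm markers was 139.5 and 893 in the SFM libraries, 1059 in SB and 836 in AA3. It was 1014 and 1142 in AA15 and 1833 in AA100 of the dose set. Otx2 alone read 63.7 and 799 in the SFM libraries, 1007 in SB, 697 in AA3, 690 and 838 in AA15 and 783 in AA100. Besides Otx2, only Cxcr4 was higher in SB than in AA3 (42.2 against 11.8), and Cer1 read 0.251 against 78.7. The summed CPM of 9 neuroectoderm markers was 397 and 1113 in the SFM libraries, 689 in SB and 120 in AA3. It was 34.3 and 34.6 in AA15 and 25.2 in AA100, where Fezf1, Neurog2 and Rax were at 0.

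Promoter sequence from the RefSeq table of build GRCm38.p6 was matched for 6 of the 8 genes. The 250 bases before the start of 3 of them are shown, because Shisa2 had the lowest ratio of AA100 to SFM in the dose set, and Sfrp5 and Shisa3 had the highest ratios of AA100 to AA3 in standard RNA-seq. They are chr14:59625031-59625280 on the plus strand for Shisa2, chr19:42202253-42202502 on the minus strand for Sfrp5 and chr5:67607633-67607882 on the plus strand for Shisa3. Each runs 5′ to 3′ in the sense of the gene, upstream of its first exon, and capitals mark matches to the SMAD box CAGAC on either strand, the short element that activin-regulated SMAD proteins bind.
Shisa2: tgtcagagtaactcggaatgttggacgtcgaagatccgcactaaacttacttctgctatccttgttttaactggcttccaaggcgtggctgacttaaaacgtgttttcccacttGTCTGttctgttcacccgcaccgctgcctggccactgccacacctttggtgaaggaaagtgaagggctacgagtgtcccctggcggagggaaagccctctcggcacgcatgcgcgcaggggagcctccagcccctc
Sfrp5: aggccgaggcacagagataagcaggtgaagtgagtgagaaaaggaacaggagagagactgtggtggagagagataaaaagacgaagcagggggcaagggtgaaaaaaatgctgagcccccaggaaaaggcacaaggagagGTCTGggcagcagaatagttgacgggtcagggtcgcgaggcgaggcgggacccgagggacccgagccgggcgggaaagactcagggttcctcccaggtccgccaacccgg
Shisa3: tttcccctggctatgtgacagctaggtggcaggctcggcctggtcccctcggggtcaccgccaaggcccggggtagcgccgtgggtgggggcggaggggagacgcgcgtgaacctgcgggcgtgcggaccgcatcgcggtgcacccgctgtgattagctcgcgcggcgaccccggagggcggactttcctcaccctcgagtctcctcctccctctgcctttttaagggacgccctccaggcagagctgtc
The box was found once in each of the Shisa2, Sfrp5 and Sfrp2 windows, 136, 110 and 238 bases before the start given in the table, and not in those of Dkk1, Frzb and Shisa3. It was present in 42.2% of 32851 promoters of this length, so its presence is common. The FOXH1 letters AATNNACA (in 10.9% of promoters), the TCF/LEF letters CTTTGAT (3.21%) and the FOXA letters TGTTTAC (3.17%) were searched on both strands and were in none of the 6 windows. For Sfrp2 the window lies inside the gene span of the RefSeq gene table, which starts the gene further upstream. A match is a run of letters and not a shown binding site.

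Across the dose set, the members had different orders of level. Shisa2 was far lower in every library at 15 or 100 ng/mL activin than in both controls, Sfrp1 and Sfrp2 were lower to a lesser degree, Shisa3 was near absent from 1 control and from the SB library and present with activin, and Dkk1 and Frzb were lowest at the intermediate doses. With both SFM libraries in the fit, none of these was called by edgeR with its filter on low counts. How many of all genes show orders like these over so few libraries was not counted. In the trend over SFM, AA3, AA15 and AA100, 0 of the 7 members tested were called by edgeR's quasi-likelihood test (Benjamini-Hochberg adjusted p under 0.05), where 0.397% of 12102 genes were. Sfrp5 had too few counts to be tested. The median trend of the 7 was -0.26 per dose step on the log2 scale, and that of all genes tested 0.001. Without SFM replicate 2, 4 of 7 members were called against 5.79% of genes (Shisa2, Sfrp1 and Sfrp2 lower with dose, Shisa3 higher), and without SFM replicate 1, 0 were, against 0.0168%. With both SFM libraries, DESeq2 called Shisa2, Sfrp1 and Sfrp2 among 469 genes, and edgeR without the filter called Shisa2 (adjusted p = 0.0446).

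**Figure D1:**
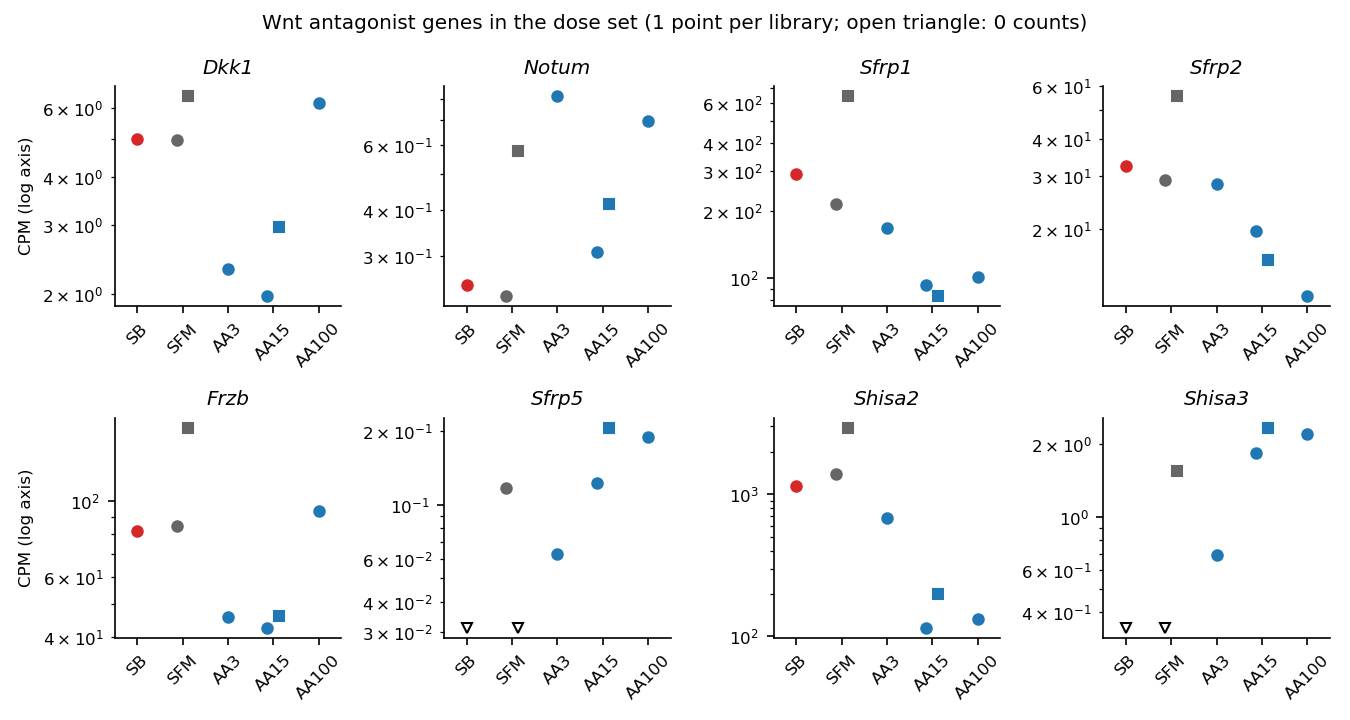
TMM-scaled CPM of each Wnt antagonist on a log axis (vertical, own scale per panel) in the 7 libraries of the dose set, by treatment (horizontal), with 1 point per library (circles for replicate 1, squares for replicate 2) and open triangles at the lower edge for 0 counts. Shisa2 reads 1387 and 2951 in the SFM libraries and 132 in AA100, while Dkk1 reads 2.32 in AA3 and 6.20 in AA100.

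Among the secreted Frizzled-like proteins, Sfrp1 stood at 215 and 644 CPM in the SFM libraries, 291 in SB, 168 in AA3, 93.6 and 83.4 in AA15 and 101 in AA100. Every activin library was below every library without activin, and SB lay between the controls. The share of all genes with such an order, here and for the members that follow, was not counted. The trend per dose step was -0.80 ± 0.22 on the log2 scale (± is the standard error; adjusted p = 0.228 by edgeR), and -0.44 ± 0.10 (adjusted p = 0.0232 by edgeR) without SFM replicate 2, against -0.93 ± 0.22 (adjusted p = 0.150) without SFM replicate 1.

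Sfrp2 was also lower in every activin library than in the others, with 29.3 and 55.6 CPM in SFM, 32.6 in SB, 28.3 in AA3, 19.8 and 15.8 in AA15 and 11.95 in AA100. The AA100 library was the lowest of the 7. Its trend was -0.62 ± 0.15 per step (adjusted p = 0.172 by edgeR), and -0.45 ± 0.11 (adjusted p = 0.0235 by edgeR) without SFM replicate 2, against -0.74 ± 0.14 (adjusted p = 0.122) without SFM replicate 1.

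Frzb was measured at 84.6 and 165 CPM in SFM, 81.7 in SB, 45.7 in AA3, 42.5 and 46.2 in AA15 and 93.6 in AA100. The 3 libraries at 3 and 15 ng/mL lay below all others, and AA100 lay between the controls. The linear trend was -0.26 ± 0.22 per step (adjusted p = 0.594 by edgeR). Sfrp5, which marks anterior visceral endoderm and later ventral foregut, had 0 to 3 counts in each of the 7 libraries, so no difference was detectable at this depth.

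Dkk1, a secreted inhibitor of the Lrp co-receptors needed for head formation, stood at 4.98 and 6.46 CPM in SFM, 5.01 in SB, 2.32 in AA3, 1.97 and 2.97 in AA15 and 6.20 in AA100. Like Frzb, its 3 lowest libraries were those at 3 and 15 ng/mL, and SB and AA100 lay between the controls. AA100 against AA3 gave 1.42 ± 0.74 for Dkk1 and 1.03 ± 0.78 for Frzb on the log2 scale, with an adjusted p of 1.00 for both by edgeR.

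Shisa2 stood at 1387 and 2951 CPM in SFM, 1152 in SB, 678 in AA3, 115 and 200.2 in AA15 and 132 in AA100. The libraries without activin, the AA3 library and the libraries at higher doses formed 3 ranges that did not overlap. How many of all genes separate like this over so few libraries was not counted. The trend was -1.48 ± 0.24 per step (adjusted p = 0.0713 by edgeR) with both SFM libraries, -1.25 ± 0.16 (adjusted p = 0.00107 by edgeR) without SFM replicate 2 and -1.57 ± 0.25 (adjusted p = 0.0857 by edgeR) without SFM replicate 1. The summed neuroectoderm markers given above were also high in SFM and SB, lower in AA3 and lowest at 15 and 100 ng/mL, and their part in the Shisa2 values was not tested.

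Shisa3 had 0 and 16 counts in SFM, 0 in SB, 11 in AA3, 30 and 34 in AA15 and 35 in AA100, which is at most 2.35 CPM. The SB library and 1 of the controls had no read, so its AA100 level was at least 11.8-fold higher than in SB against a floor of 3 counts in that library, while the other control lay above AA3 (1.54 against 0.688 CPM) and below AA15 and AA100. Its trend was 0.66 ± 0.46 per step (adjusted p = 0.525 by edgeR), 1.37 ± 0.36 (adjusted p = 0.0481 by edgeR) without SFM replicate 2, where the 1 control left has no read, and 0.31 ± 0.26 (adjusted p = 0.437 by edgeR) without SFM replicate 1. Notum had 4 to 13 counts in the 7 libraries with no order by dose, and its trend was 0.12 per step (adjusted p = 0.842 by edgeR).

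Each treatment was also set against SFM. With both controls, 0 of 7 members were called at any treatment, where 0 of 12180 genes (0.0%) were called in each of the 4 comparisons. At an unadjusted p under 0.05 there were 179 genes for SB, 197 for AA3, 702 for AA15 and 541 for AA100, and DESeq2 called 0, 0, 1 and 1 members, the 1 being Shisa2, among 17, 14, 166 and 104 genes. The log2 difference of Shisa2 from SFM was -0.91 with the inhibitor and -1.68, -3.78 and -4.03 with 3, 15 and 100 ng/mL activin, and that of Sfrp1 was -0.56, -1.36, -2.28 and -2.09. With only SFM replicate 1 as control the Shisa2 values were -0.28, -1.05, -3.14 and -3.39 and the Sfrp1 values 0.43, -0.37, -1.27 and -1.09. With only SFM replicate 2 they were -1.36, -2.13, -4.23 and -4.48 for Shisa2 and -1.15, -1.95, -2.87 and -2.68 for Sfrp1. The comparisons share their SFM libraries. With 1 SFM library left out, the spread in these fits rests on the AA15 technical pair alone. The calls that follow therefore set single libraries against technical spread. With SFM replicate 1 alone as control, 0, 3, 4 and 4 members were called in SB, AA3, AA15 and AA100, against 4.12%, 5.27%, 13.0% and 12.9% of genes. With SFM replicate 2 alone, 5, 5, 5 and 4 were, against 58.4%, 57.3%, 64.7% and 59.2%.

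The highest and the lowest activin dose can be compared without SFM as a term. Within the dose set, 0 of 7 members and 0 of 12180 genes (0.0%) were called in AA100 against AA3, with 128 genes at an unadjusted p under 0.05 by edgeR and 0 genes called by DESeq2. When the fit held the 4 activin libraries only, 4 of 7 members were called against 5.19% of genes: Dkk1 and Frzb higher in AA100, Sfrp2 and Shisa2 lower. That fit sets the difference between single libraries against the spread of the AA15 technical pair.

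The same doses were compared by 3 other preparations. In standard RNA-seq, 5 of 8 members were called, against 62.3% of 12605 genes tested, so the share of members is near that of all genes. The median log2 change was 0.15 over the members and -0.009 over all genes tested. Sfrp5, Shisa3, Sfrp1 and Sfrp2 rose (genes that rose made up 31.1% of all tested) and Frzb fell (genes that fell made up 31.1% as well). The AA3 pair lay close to counting error, with a chi-square per degree of freedom of 1.32 over genes, and AA100 was 1 library, so these tests compare 3 libraries. When the 10 libraries of the 3 preparations shared 1 estimate of the spread, 0 of the 8 members were called, against 1.91% of genes.

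**Figure D2:**
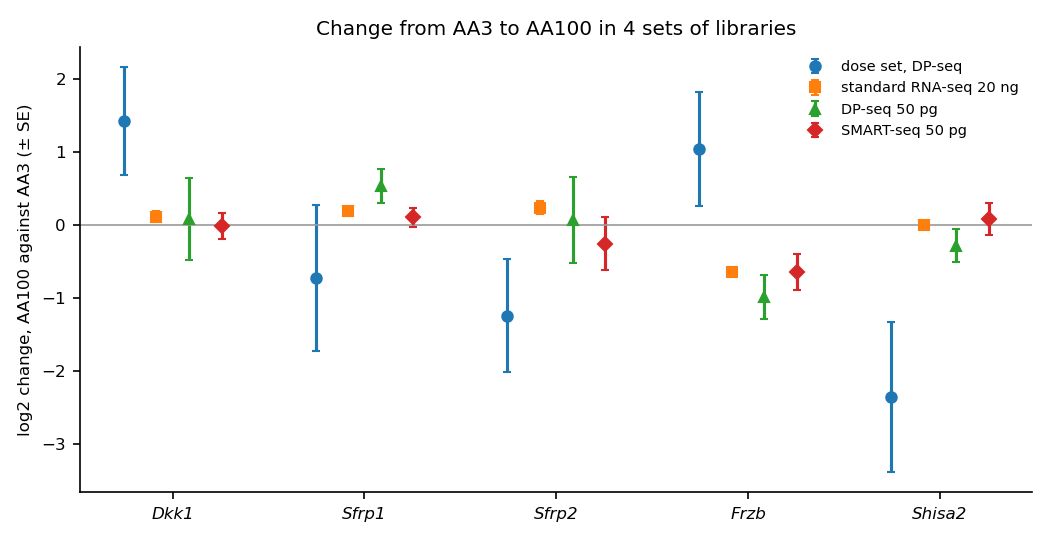
Log2 change of AA100 against AA3 (vertical axis) for the 5 better-counted Wnt antagonists (horizontal axis) in the dose set, standard RNA-seq, DP-seq at 50 pg and SMART-seq at 50 pg, with points for the estimates and bars for their standard errors. Shisa2 lies at -2.36 in the dose set and at -0.01 in standard RNA-seq, and Frzb lies at 1.03 and -0.64.

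Sfrp5 had the greatest change of the members in standard RNA-seq, from 1.94 and 1.05 CPM in AA3 (21 and 11 counts) to 60.3 in AA100 (620 counts), a log2 change of 5.31 ± 0.15 (adjusted p = 1.1e-251 by edgeR). In DP-seq at 50 pg it had 0 counts in AA3 and 56 and 44 in AA100, at least 14.2-fold higher against a floor of 3 counts (adjusted p = 0.119 by edgeR). In SMART-seq it had 34 and 1 counts in AA3 and 434 and 189 in AA100, a ratio of 18.7 with a 95% counting interval of 13.3 to 27.0 and an adjusted p of 0.238 by edgeR. The AA3 libraries differ far beyond that interval: the log2 change ran from 3.21 without AA3 replicate 2 to 8.26 without AA3 replicate 1. Thus all 5 AA100 libraries of these preparations lay above all 5 of AA3 within their own preparation. How many of all genes do so was not counted. By edgeR only standard RNA-seq passed the test, and DESeq2 called Sfrp5 in SMART-seq as well (adjusted p = 0.00201, among 1193 genes called).

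Shisa3 had 5 and 4 counts in AA3 and 50 in AA100 of standard RNA-seq, a log2 change of 3.49 ± 0.44 (adjusted p = 1.5e-14 by edgeR). In DP-seq at 50 pg it had 1 count in AA3 and 21 and 33 in AA100, a ratio of 23.0 with a 95% counting interval of 3.96 to 927 and an adjusted p of 0.527 by edgeR. The pair of AA3 dilution libraries made by DP-seq from the same input had 17 and 36 Shisa3 counts, 2.94 and 5.36 CPM of the library total, which is above the 1.87 and 2.41 TMM-scaled CPM of the AA100 libraries, so the order of AA3 and AA100 turns with the AA3 library used. The AA3 dilution libraries from 10 ng to 100 pg read lower for Shisa3, at 0.0963 to 0.856 CPM of the library total, below both AA100 libraries. Those from 10 pg had 0 counts. The labels do not say whether the dilution libraries and the others started from the same RNA. For Sfrp5 the 50 pg dilution pair had 0 and 0 counts. In SMART-seq Shisa3 had 0 counts in all 4 libraries and could not be tested. Intervals and floors cover counting error only.

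**Figure D3:**
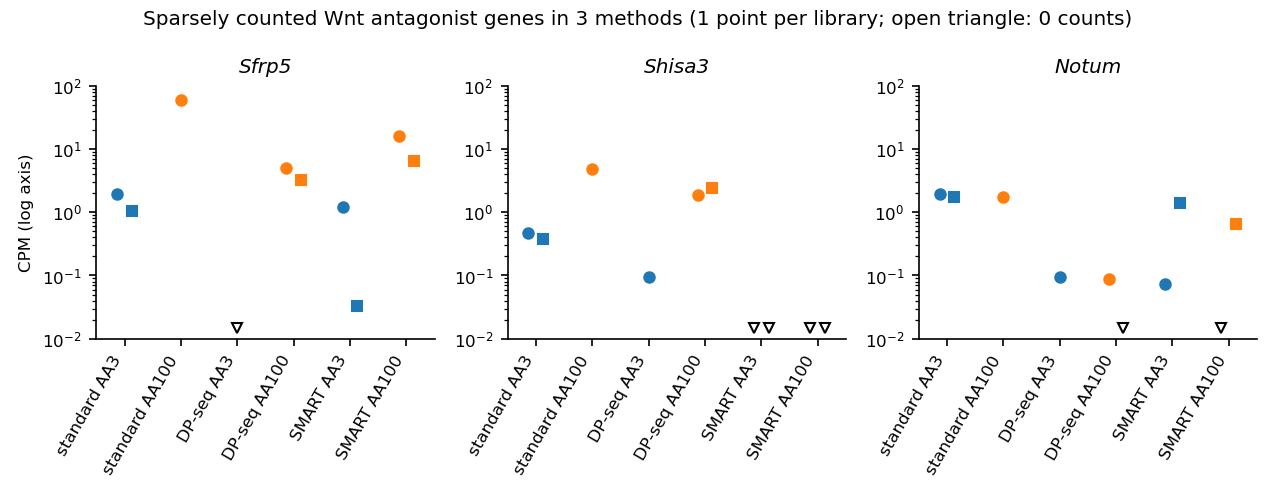
TMM-scaled CPM on a log axis (vertical) of the sparsely counted members Sfrp5, Shisa3 and Notum in the AA3 (blue) and AA100 (orange) libraries of standard RNA-seq, DP-seq at 50 pg and SMART-seq at 50 pg (horizontal), with 1 point per library and open triangles at the lower edge for 0 counts. Sfrp5 reads 1.94 and 1.05 in AA3 and 60.3 in AA100 of standard RNA-seq, and Shisa3 has 0 counts in all 4 SMART-seq libraries.

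Frzb was lower at the high dose in each of the 3 preparations. It fell from 158 and 165 CPM to 104 in standard RNA-seq, by 0.64 ± 0.05 on the log2 scale (adjusted p = 4.8e-38 by edgeR). In DP-seq at 50 pg it read 155 in AA3 and 65.9 and 90.1 in AA100 (log2 change -0.99 ± 0.30, adjusted p = 0.0673 by edgeR). In SMART-seq it read 42.3 and 55.9 in AA3 and 34.0 and 29.0 in AA100 (log2 change -0.64 ± 0.25, adjusted p = 0.272 by edgeR). The AA3 and AA100 ranges of Frzb did not overlap in any of the 3, which hold 1 or 2 libraries per dose. How many of all genes separate in this way was not counted. In the dose set the order was the opposite.

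Sfrp1 rose slightly in standard RNA-seq, from 333 and 351 CPM to 391, a log2 change of 0.19 ± 0.03 (adjusted p = 7.6e-11 by edgeR). It read 216 in AA3 and 357 and 269 in AA100 of DP-seq at 50 pg (0.54 ± 0.24, adjusted p = 0.257 by edgeR), and changed by 0.10 in SMART-seq without passing the test. Sfrp2 rose from 32.3 and 34.5 CPM to 39.2 in standard RNA-seq, by 0.23 ± 0.09 (adjusted p = 0.0174 by edgeR), a call that DESeq2 did not make (adjusted p = 0.319), and its estimates were 0.07 in DP-seq and -0.26 in SMART-seq.

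Dkk1 read 55.5 and 55.3 CPM in AA3 and 59.95 in AA100 of standard RNA-seq (log2 change 0.11, adjusted p = 0.160 by edgeR), and 89.8 and 70.3 against 79.3 and 78.5 in SMART-seq. Shisa2 read 115 and 122 against 118 in standard RNA-seq (log2 change -0.01, adjusted p = 0.906 by edgeR), and its estimates were -0.28 in DP-seq and 0.08 in SMART-seq. Notum had 21 and 18 counts in AA3 and 18 in AA100 of standard RNA-seq, 2 and 42 against 0 and 19 in SMART-seq, and at most 1 in DP-seq at 50 pg, where it was not tested. These 3 members did not pass the test in any of the 3 preparations. The AA3 dilution pair made by DP-seq from 50 pg read 654 and 601 CPM of the library total for Shisa2. The DP-seq libraries at 50 pg read 302 in AA3 and 275.5 and 220.5 in AA100 (TMM-scaled CPM). For Dkk1 the dilution pair read 8.65 and 9.22, against 18.6 in AA3 and 20.3 and 19.0 in AA100. The AA3 levels of Shisa2 and Dkk1 at 50 pg thus differed between these sets, which are scaled differently, and a change of AA100 against AA3 would differ with them. The labels do not say whether the sets started from the same RNA, and the cause of the difference was not tested.

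By edgeR, 0 of 7 tested members were called in DP-seq at 50 pg, against 3.43% of 11631 genes, and 0 of 7 in SMART-seq, against 1.35% of 11453. Without the filter on low counts Frzb was called in DP-seq (adjusted p = 0.0305 by edgeR). The differences between preparations in the AA100 against AA3 change were tested in 1 fit of 10 libraries, and no member passed: 0.739% of 14072 genes differed between DP-seq and standard RNA-seq, 0.853% between SMART-seq and standard RNA-seq, and 0.0213% between SMART-seq and DP-seq. The 95% interval of the Shisa2 difference was -0.88 to 0.36 for DP-seq minus standard RNA-seq and -0.55 to 0.59 for SMART-seq minus standard RNA-seq, and that of Frzb was -1.24 to 0.57 and -0.91 to 0.76.

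Whether the dose set differed from these preparations was tested after its values had been seen, in 1 fit of the 14 activin libraries. No member passed by edgeR, against 0.328% of 14627 genes for the dose set minus standard RNA-seq, 0.403% for the dose set minus DP-seq at 50 pg and 0.438% for the dose set minus SMART-seq. The Shisa2 change in the dose set was below that in standard RNA-seq by -2.34 ± 0.43 on the log2 scale (95% interval -3.31 to -1.37, adjusted p = 0.0749 by edgeR), and the adjusted p was 0.0981 against DP-seq and 0.0524 against SMART-seq. The Frzb change was above it by 1.68 ± 0.42 (95% interval 0.73 to 2.63, adjusted p = 0.218 by edgeR). By DESeq2, 2, 3 and 2 members differed in these 3 tests (Shisa2 and Frzb in each, Sfrp1 also against DP-seq), among 284, 407 and 478 genes called. The labels do not say whether the dose set and the other preparations started from the same RNA.

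Between genes, levels can be compared per kilobase of transcript in standard RNA-seq. In AA3 the mean was 78.3 CPM per kilobase for Sfrp1, 51.3 for Frzb, 38.0 for Shisa2, 22.8 for Dkk1, 16.7 for Sfrp2, 0.911 for Notum, 0.788 for Sfrp5 and 0.112 for Shisa3. Among neighbours in this order only Notum and Sfrp5 overlapped over their 2 libraries. In the AA100 library Sfrp5 reached 31.8 CPM per kilobase, next to Frzb at 32.9 and Shisa2 at 37.8.

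The other genes of the pathway were described as lists. In the dose trend, 1 of 11 other antagonists rose, Cer1, an endoderm-secreted inhibitor of Nodal, BMP and Wnt ligands (1.35 ± 0.15 per step on the log2 scale, adjusted p = 0.0287 by edgeR), and 1 of 10 Wnt ligands fell, Wnt8b (-2.94 ± 0.33, adjusted p = 0.0287 by edgeR), while 0 of 17 receptors and 0 of 9 Wnt-responsive genes were called. In standard RNA-seq, of 12 other antagonists 3 rose and 3 fell, of 11 ligands 2 rose and 4 fell, of 18 receptors and R-spondins 4 rose and 10 fell, and of 11 Wnt-responsive genes 5 rose and 5 fell, to be read against the 62.3% of all genes. Those with the greatest change in each list were Sfrp4, another secreted Frizzled-like protein (1.35), the ligand Wnt2 (-3.92), the Wnt receptor Ryk (-2.92) and Myc (2.91), all as log2 changes. Cer1 also rose in DP-seq at 50 pg (2.69 ± 0.20, adjusted p = 7.6e-09 by edgeR) and in SMART-seq (2.71 ± 0.09, adjusted p = 0.00115 by edgeR). In DP-seq at 50 pg Rspo3, an R-spondin that enhances Wnt signalling, fell (-0.98, adjusted p = 0.0308 by edgeR). T, a primitive streak gene that Wnt signals induce, fell in SMART-seq (-1.26 ± 0.15, adjusted p = 0.0320 by edgeR). It also fell in standard RNA-seq (-0.25 ± 0.02, adjusted p = 6.1e-25 by edgeR), and its estimate in DP-seq at 50 pg was -0.50 (adjusted p = 0.231 by edgeR). In the dose set T was higher in AA100 than in AA3, at 705 against 199 CPM, and the difference between the dose set and SMART-seq in this change was called (3.17 ± 0.38, adjusted p = 0.0173 by edgeR). The difference was 2.08 ± 0.41 against standard RNA-seq and 2.32 ± 0.40 against DP-seq at 50 pg, neither called by edgeR.

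Beside the Sfrp5 and Shisa3 values, the summed anterior endoderm markers, all 9 of them above 0, went from 1113 and 1127 CPM in AA3 to 2038 in AA100 in standard RNA-seq, from 964 to between 2736 and 3318 in DP-seq at 50 pg, and from between 352 and 359 to between 1309 and 1402 in SMART-seq. The median log2 change of the 9 was 0.66, 0.68 and 0.54. Not all of them rose in standard RNA-seq or in DP-seq at 50 pg. In the same order of preparations, the summed 9 visceral endoderm markers went from 3.05 and 3.06 CPM to 20.5, from 0 with all 9 at 0 to between 4.82 and 10.8, and from between 1.52 and 5.21 to between 15.1 and 18.7. In the dose set this sum was higher and went the other way, with 101 CPM in AA3 and 54.0 in AA100. Sfrp5 had 0 to 3 counts in each library there. The part of either cell type in the member values was not tested. The summed neuroectoderm markers were 62.2 and 66.3 CPM in AA3 and 61.3 in AA100 of standard RNA-seq, where Shisa2 read 115 to 122 CPM. Single markers changed in both directions there. The median log2 change of the 6 tested was -0.75, and Fezf1 and Neurog2 were at 0 in AA100.

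The gene with the pattern most like each well-counted member was found over the 17 libraries of the dose set and the 3 preparations, as the smallest root mean square difference in centred log2 CPM among 9819 genes. For Shisa2 this was Tubb3, at 0.40, followed by Zfp462 and Kctd12. It was Cdh2 for Dkk1 (0.224), Efnb2 for Sfrp1 (0.24), Topbp1 for Sfrp2 (0.261) and Scd1 for Frzb (0.214). The root mean square of the member's own centred values was 1.095 for Shisa2, 0.416 for Dkk1, 0.644 for Sfrp1, 0.491 for Sfrp2 and 0.522 for Frzb. Tubb3 is one of the neuroectoderm markers summed above.

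The dilution libraries show how far input limits these values in AA3. From 10 ng to 50 pg, over 8 libraries, Shisa2 stayed between 515 and 707 CPM of the library total, Sfrp1 between 169 and 249, Frzb between 114 and 186, Dkk1 between 8.62 and 18.3 and Sfrp2 between 6.70 and 12.5. At 1 pg Sfrp1 had 3 and 18 counts, Sfrp2 1 and 0, and Shisa2 read 316 and 86.9 CPM, so the higher value was 6.30 times the lower for Sfrp1 and 3.63 times for Shisa2, against 1.48 and 1.37 times over the 8 libraries of larger input. For Frzb these ratios were 2.13 and 1.64, and for Dkk1 they were 1.75 and 2.13, with Dkk1 at 42.1 and 73.5 CPM at 1 pg. At 10 pg the ratio was 7.77 for Dkk1 (24.5 and 3.15 CPM), 2.78 for Sfrp2, 1.87 for Frzb, 1.49 for Sfrp1 and 1.26 for Shisa2. Sfrp5 had 0 to 7 counts over the 12 libraries and none in 8 of them, Shisa3 0 to 36 and Notum 0 to 12. The number of members with a count was 4 to 8.

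**Figure D4:**
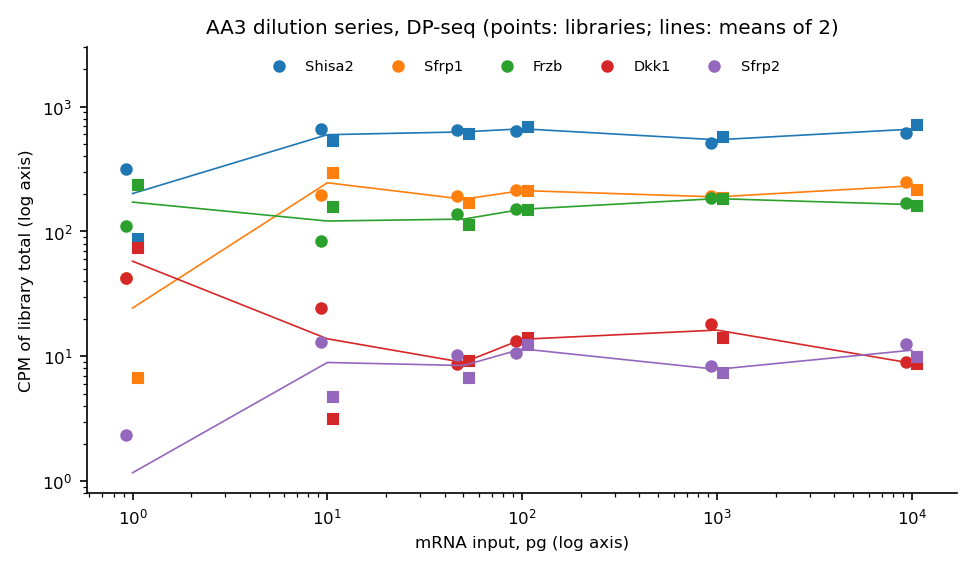
CPM of the library total on a log axis (vertical) for the 5 better-counted Wnt antagonists by mRNA input on a log axis (horizontal) in the 12 AA3 dilution libraries, with 1 point per library and lines through the means of each pair. Sfrp1 lies between 169 and 249 from 10 ng to 50 pg and at 6.68 and 42.1 at 1 pg, and the 1 pg library with 0 Sfrp2 counts has no Sfrp2 point.

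Levels differed widely between libraries made with different primers. With primer sets 1, 2 and 3 Dkk1 read 103, 22.1 and 297 CPM, Sfrp1 390, 1443 and 346, Frzb 172, 522 and 73.8, and Shisa2 236, 99.8 and 7.997, each in 1 library without a replicate. In the paired-end library Dkk1 read 4.61, Sfrp1 67.8 and Shisa2 707. Levels of a member are therefore compared here only within one preparation.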

How the data were processed

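Per the file headers, the authors deposited unique read counts per RefSeq transcript for each library. Tables in which some of 15 values were not whole were treated as deposited estimated counts and rounded. The sources used here do not name the aligner, counting rule, RefSeq release, build or strand use. Reads shared by near-identical or overlapping genes therefore cannot be assigned. Of 26566 transcripts, 25857 were named by a RefSeq table and 150 by a GENCODE table, and counts were summed to 21844 genes. Genes passing filterByExpr (minimum count 10, minimum total 15) were scaled by TMM and fitted with edgeR 4.0.16 in R 4.3.3 by robust quasi-likelihood, with Benjamini-Hochberg adjustment at 0.05 over all genes tested. A group of 1 library was assumed to vary like the others in its fit. The standard error is the log2 change divided by the square root of F. DESeq2 1.42.0, other scaling, no filter, left-out replicates and a replicate block were the alternatives. Fits were tested on simulated data. The members and lists were chosen with earlier results of these data known. Named genes are the 8 members, up to 3 called genes with the greatest change of each other Wnt list, and the 3 nearest patterns of each member, of which a selection is printed.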

Additional observations from a re-analysis of the deposited data

How the results depend on the processing

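The number of members called changed with the SFM libraries, and in standard RNA-seq with the estimate of spread. With each replicate left out in turn it ran from 0 to 4 in the dose trend, AA100 against SFM and AA100 against AA3 of the dose set, and from 0 to 5 in SB, AA3 and AA15 against SFM, each high count without 1 SFM library. The comparison of AA100 with AA3 in the dose set gave 4 members with activin libraries only. In standard RNA-seq, 0 of the 5 calls were left in the joint fit of 10 libraries or, in that fit, without either AA3 replicate. In DP-seq at 50 pg the range was 0 to 1 (Sfrp1 without AA100 replicate 2), and 1 without a filter on low counts (Frzb). In the differences between the dose set and the other preparations it was 0 to 1 in each. DESeq2 called 3 members in the dose trend (Shisa2, Sfrp1, Sfrp2), 1 each in AA15 and AA100 against SFM and in SMART-seq, and 2, 3 and 2 in those differences, and did not call Sfrp2 in standard RNA-seq, where it called 4 members. Without a filter the dose trend called 1 (Shisa2). Outside the dose trend, the high counts with 1 SFM library left out take their spread from the AA15 technical pair alone. The cause of these changes in the calls was not tested.

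Genes called ranged with the alternatives from 0 to 693 in the dose trend (48 as reported), from 0 to 7815 over the comparisons with SFM (0 as reported), from 0 to 606 in AA100 against AA3 of the dose set (0), from 47 to 7858 in standard RNA-seq (7849) and from 11 to 1193 in SMART-seq (155). For the differences between preparations they ranged from 5 to 535 (104 as reported), 8 to 484 (120) and 0 to 549 (3), and for those between the dose set and the preparations from 9 to 284 (48), 3 to 407 (59) and 7 to 478 (64).

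Of 1128 estimates for a single member under an alternative, 36 had another sign and 2, Dkk1 and Shisa3 in SB against SFM, came to 0. The rest kept their sign, 67 newly passing the threshold and 16 no longer passing it. With a replicate left out, the log2 estimates that reached or crossed 0 ranged, in the dose trend, from -0.058 to 0.072 for Dkk1, -0.30 to 0.011 for Frzb and -0.075 to 0.24 for Notum. In SB against SFM they ranged from -0.37 to 0 for Dkk1, -1.15 to 0.43 for Sfrp1, -0.78 to 0.14 for Sfrp2, -7.53 to 0 for Shisa3 and -1.19 to 0.085 for Notum. Against SFM they ranged from -1.16 to 6.46 for Shisa3 in AA3 (6.46 without SFM replicate 2, against a library at 0 counts), -0.68 to 0.60 for Notum in AA15, and -0.064 to 0.31 for Dkk1 and -0.82 to 0.14 for Frzb in AA100. For AA100 against AA3 they ranged from -0.052 to 0.045 for Shisa2 and -0.14 to 0.025 for Notum in standard RNA-seq, -0.55 to 0.50 for Sfrp2 in DP-seq, and -0.19 to 0.16 for Dkk1 and -7.38 to 2.13 for Notum in SMART-seq. For DP-seq minus standard RNA-seq they ranged from -0.07 to 0.009 for Dkk1 and -0.77 to 0.27 for Sfrp2. For SMART-seq minus standard RNA-seq they ranged from -2.17 to 2.84 for Sfrp5, -0.27 to 0.15 for Frzb, -0.047 to 0.076 for Shisa2 and -7.20 to 2.14 for Notum. For SMART-seq minus DP-seq they ranged from -0.84 to 0.21 for Sfrp2 and -6.23 to 3.10 for Notum. For the dose set minus DP-seq and minus SMART-seq, Notum ranged from -0.20 to 3.47 and from -2.29 to 7.01. Shisa2 in standard RNA-seq was 0.005 by DESeq2 and 0.002 without a filter, and Notum in SMART-seq minus DP-seq was 0.019 by DESeq2. The cause was not tested.

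SFM and AA15 share replicate numbers, and so do the SMART-seq groups, but same-numbered libraries did not deviate together (correlation -0.16 and -0.024), so only the number is shared. With the replicate block 0 members were called in every comparison that allowed it, with 0 genes called in the dose trend and 54 in SMART-seq, Dkk1 in SB against SFM was 0.061 and Shisa3 in AA3 against SFM was 1.73. With the pairing crossed, an alternative chosen after seeing the data, 0 members were called in the dose trend.

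Groups of 1 or 2 libraries, mostly technical replicates, limit every comparison. Low counts limit Sfrp5, Shisa3 and Notum, for which a single library can set the estimate.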
